A study of Mus musculus with 14 samples.

Results

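The genes described here are 10 regulators of the G1 phase of the cell cycle: the CDK inhibitors Cdkn1a, Cdkn1b, Cdkn2a, Cdkn2b, Cdkn2c and Cdkn2d, the cyclins Ccnd2, Ccnd3 and Ccne1, and the kinase Cdk6. They were taken by symbol from a table of 26683 gene symbols, each found as 1 row, and were followed through all 14 RNA-seq libraries. Cdkn2c was of particular interest because it lies in Sle2, a lupus susceptibility interval that the diseased strain carries, and is a candidate gene of that interval.

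The libraries came from the spleens of 7 female mice aged 8 months, and each mouse gave a Tfh and a Tn library. TC mice (B6.NZM-Sle1NZM2410/AegSle2NZM2410/AegSle3NZM2410/Aeg/LmoJ) are congenic for Sle1, Sle2 and Sle3, intervals from the lupus-prone NZM2410 strain on chromosomes 1, 4 and 7, on a C57BL/6J background. C57BL/6J (B6) mice were the controls. Tfh, T follicular helper cells that help B cells in germinal centres, were sorted as CD4+, CD44+, CD162lo/- and PD-1+ cells. Tn, naive T cells, were sorted as CD4+ and CD44- cells. The 4 groups were TC Tfh (n = 3), TC Tn (n = 3), B6 Tfh (n = 4) and B6 Tn (n = 4). All 3 intervals came together with every other gene inside them, so that a difference between TC and B6 cannot be tied to a single gene. In bulk RNA of this kind, fewer cells of a type and less RNA per cell cannot be told apart.

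Cells pass from G1 into S phase once cyclin-dependent kinases phosphorylate the retinoblastoma protein and free E2F factors, which switch on genes for DNA replication. D cyclins, here Ccnd2 and Ccnd3, activate CDK4 and CDK6, and cyclin E activates CDK2 later in G1. The INK4 proteins, encoded by Cdkn2a, Cdkn2b, Cdkn2c and Cdkn2d, bind CDK4 and CDK6 and keep the D cyclins from activating them. The CIP/KIP proteins p21 (Cdkn1a) and p27 (Cdkn1b) act on cyclin E complexes and also bind cyclin D complexes. In T cells p27 is known for holding resting cells out of the cycle.

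Library totals ran from 15162309 to 20191558 counts. Values are CPM, counts per 1e6 of a library total scaled by TMM (trimmed mean of M-values), and 3 counts, taken as the floor of a library, equal 0.15 to 0.191 CPM. Tests are edgeR quasi-likelihood tests fitted over 13427 genes, and a gene was called, or said to have risen or fallen, where its p, adjusted over all of them by the Benjamini-Hochberg method, was below 0.05. The labelled cell types carried their markers. The summed level of 5 Tfh markers (Cxcr5, Bcl6, Pdcd1, Il21 and Icos) was 1632 to 1969 CPM in TC Tfh and 112 to 126 CPM in TC Tn, and 2002 to 2295 CPM in B6 Tfh and 96.8 to 125 CPM in B6 Tn. Markers of other cell types were found too. The 8 B cell markers summed to 1608 to 2350 CPM in TC Tfh and 671 to 728 CPM in TC Tn, and to 1830 to 2148 CPM in B6 Tfh and 594 to 621 CPM in B6 Tn, with none of the 8 at 0 in any group. In Tn nearly all of that sum was Ighm, with means of 704 CPM in TC Tn and 591 CPM in B6 Tn. The 5 Treg and Tfr markers summed to 1930 to 2475 CPM in TC Tfh and 117 to 155 CPM in TC Tn, and to 1510 to 1795 CPM in B6 Tfh and 153 to 201 CPM in B6 Tn. The 6 plasma cell markers summed to 239 to 273 CPM in TC Tfh and 64.1 to 80.1 CPM in TC Tn, and to 297 to 355 CPM in B6 Tfh and 72.8 to 82.1 CPM in B6 Tn. Most of that sum was Irf4, Xbp1 and Prdm1, with means of 129, 91.7 and 29.8 CPM in TC Tfh and 175, 103 and 27.1 CPM in B6 Tfh. The other markers of that list, Jchain, Sdc1 and Mzb1, averaged no more than 10.2 CPM in any group. Myeloid, CD8 and NK, and erythroid markers summed to no more than 44.6 CPM in any library, with the myeloid marker Cd14 at 0 in 3 groups and the NK marker Ncr1 at 0 in all of them. Whether these B cell, plasma cell and Treg markers came from other cells was not tested. Their part in the differences between cell types and strains given next was not tested either.

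Between Tfh and Tn, 9 of the 10 were called in each strain, 6 higher in Tfh and 3 lower. In TC 66.1% of all tested genes were called, 33.7% higher and 32.4% lower, and in B6 70.3% were called, 36.9% higher and 33.3% lower. The 3 that fell in Tfh in both strains were the inhibitor Cdkn2d and the D cyclins Ccnd2 and Ccnd3. Cdkn2a, Cdkn2b, Cdkn2c, Cdkn1a and Cdk6 rose in both strains, Ccne1 was called higher in TC and not in B6, and Cdkn1b in B6 and not in TC. Between strains, 2 genes were higher (Cdkn1b and Ccne1) and 6 lower in TC Tfh, where 49.7% of all tested genes were called, 24.2% higher and 25.5% lower. Of these 6, Cdkn2a passed the filter through B6 Tfh libraries alone, so that its direction was a condition of being tested. In TC Tn 1 was higher (Cdkn1b) and 4 lower (Cdkn2c, Cdkn2d, Ccnd2 and Ccnd3), where 52% of all were called, 25.9% higher and 26.1% lower. The interaction of strain and cell type, which is positive where the Tfh to Tn ratio is higher in TC, was called for Cdkn2c and Ccne1. Of all tested genes 2.32% had a called interaction, 0.953% positive and 1.37% negative, 312 genes in all. With mouse as a block these counts were 4 of the 10 genes and 736 genes in all.

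Libraries of the groups did not overlap for the 9 called genes between Tfh and Tn in each strain, in the direction of the call. Of all tested genes 35.7% lay higher and 35.6% lower in Tfh without overlap in TC, and 33.8% higher and 30.1% lower in B6. In Tfh the strains did not overlap for 8 of the 10 genes, 2 higher and 6 lower in TC, beside 24.3% and 25.9% of all tested genes. In Tn they did not overlap for 6, 1 higher and 5 lower, beside 27.4% and 28.1%. The median log2 fold changes over the 10 genes were 1.42 for Tfh over Tn in TC and 1.10 in B6, and -0.34 for TC over B6 in Tfh and -0.37 in Tn. Over all tested genes these 4 medians lay between -0.016 and 0.0179. All 10 genes passed the filter on low counts, but Cdkn1a, Cdkn2a and Cdkn2b did so through Tfh libraries alone, so the counts between cell types are a description. The shares of called genes between cell types and between strains are high, and those of the 10 genes are not shown to differ from them. The share of called interactions was low, 2.32%, and whether the 2 of the 10 genes differ from it was not tested.

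**Figure D1:**
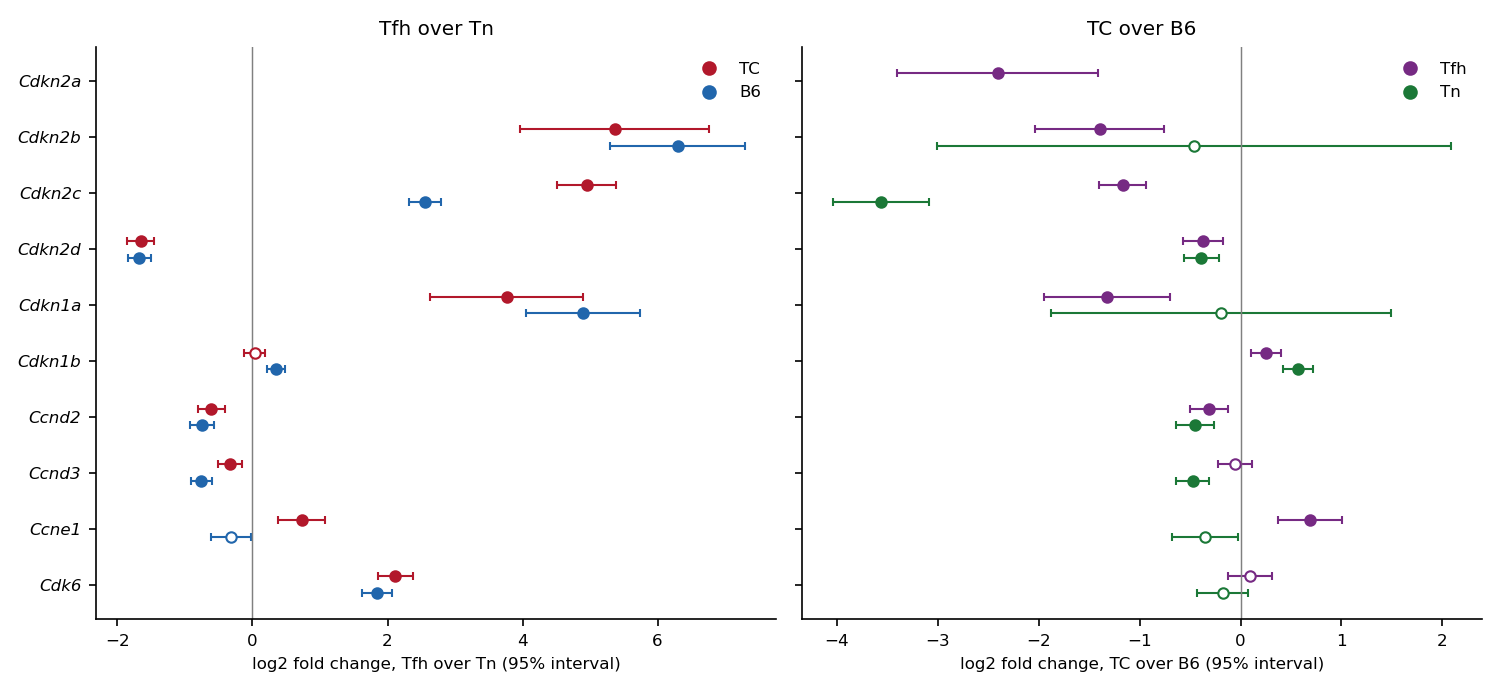
Log2 fold changes with 95% intervals of the 10 genes, on the left Tfh over Tn in TC and in B6 and on the right TC over B6 in Tfh and in Tn, with filled points for genes called and open points for others, and with Cdkn2a left out where a group had 0 counts. Cdkn2c lies at 4.95 in TC and 2.55 in B6 on the left, and at -1.17 in Tfh and -3.57 in Tn on the right.

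Promoter windows of the 4 INK4 genes are shown because these inhibitors differed in direction: Cdkn2c rose and Cdkn2d fell in Tfh, and both were lower in TC Tfh. Cdkn2b and Cdkn2a also rose in Tfh and were lower in TC Tfh. The rise of these 2 genes, and the lower level of Cdkn2a in TC Tfh, were conditions of being tested. Windows are RefSeq promoters of GRCm38.p6, from 250 bases before to 50 bases after a transcription start, read on the gene's strand, which is the minus strand for all 4 genes. Capitals mark exact matches, on either strand, to motifs of E2F (TTTGGCGC or TTTCCCGC), FOXO (GTAAACA), STAT (TTCNNNGAA) or YY1 (AANATGG). RefSeq gave 13 windows for 9 of the 10 genes, with none for Ccnd2.
Cdkn2c, upstream start, chr4:109666707-109667006: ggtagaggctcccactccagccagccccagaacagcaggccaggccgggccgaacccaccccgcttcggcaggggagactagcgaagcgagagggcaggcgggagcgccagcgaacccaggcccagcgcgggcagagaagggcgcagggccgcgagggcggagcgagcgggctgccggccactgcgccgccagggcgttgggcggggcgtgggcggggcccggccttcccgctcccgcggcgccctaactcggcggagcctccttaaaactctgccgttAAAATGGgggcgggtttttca
Cdkn2c, downstream start, chr4:109665323-109665622: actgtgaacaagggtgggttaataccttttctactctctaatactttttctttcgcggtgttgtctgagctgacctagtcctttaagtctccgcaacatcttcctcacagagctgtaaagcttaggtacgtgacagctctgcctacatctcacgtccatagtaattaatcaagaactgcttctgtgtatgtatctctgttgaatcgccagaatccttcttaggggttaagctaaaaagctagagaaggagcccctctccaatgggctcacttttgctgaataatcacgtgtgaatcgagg
Cdkn2d, chr9:21291160-21291459: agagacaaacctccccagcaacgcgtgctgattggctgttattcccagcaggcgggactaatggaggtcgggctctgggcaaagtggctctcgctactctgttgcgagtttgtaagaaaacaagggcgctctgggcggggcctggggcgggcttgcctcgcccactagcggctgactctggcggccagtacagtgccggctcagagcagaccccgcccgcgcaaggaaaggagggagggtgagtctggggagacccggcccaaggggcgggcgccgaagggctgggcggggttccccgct
Cdkn2b, chr4:89310983-89311282: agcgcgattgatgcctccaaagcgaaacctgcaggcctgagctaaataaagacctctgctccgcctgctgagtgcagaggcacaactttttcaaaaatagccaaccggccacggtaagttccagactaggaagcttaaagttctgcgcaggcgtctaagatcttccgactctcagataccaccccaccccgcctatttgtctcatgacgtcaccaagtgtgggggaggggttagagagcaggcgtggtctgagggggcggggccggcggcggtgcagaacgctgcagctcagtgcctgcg
Cdkn2a, upstream start, chr4:89294570-89294869: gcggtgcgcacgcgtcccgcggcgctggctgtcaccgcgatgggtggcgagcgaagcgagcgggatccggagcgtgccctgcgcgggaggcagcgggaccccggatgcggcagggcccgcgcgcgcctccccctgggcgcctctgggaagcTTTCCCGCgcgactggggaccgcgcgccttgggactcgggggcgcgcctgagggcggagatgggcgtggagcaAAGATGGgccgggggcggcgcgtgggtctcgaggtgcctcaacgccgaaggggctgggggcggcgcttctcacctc
Cdkn2a, downstream start, chr4:89282143-89282442: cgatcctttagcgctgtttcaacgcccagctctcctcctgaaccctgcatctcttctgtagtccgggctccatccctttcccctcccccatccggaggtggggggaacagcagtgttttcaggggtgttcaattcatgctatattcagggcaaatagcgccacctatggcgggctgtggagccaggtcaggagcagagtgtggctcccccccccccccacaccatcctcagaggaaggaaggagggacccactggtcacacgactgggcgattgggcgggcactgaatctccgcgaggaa
The upstream Cdkn2c window held 33 CpG dinucleotides at a GC content of 73.3%, and the window of its downstream start held 8 at 44.0%. Cdkn2d had 22 CpG at 66.3% GC and Cdkn2b 18 at 57.7%, and Cdkn2a had 45 at 77.0% in the upstream window and 12 at 60.3% in the downstream one. In this locus p19ARF starts upstream of the INK4 transcript p16INK4a. The median over 32851 windows was 7 CpG and 52.7% GC. The upstream Cdkn2c window matched the YY1 motif 29 bases after the start. The upstream Cdkn2a window matched E2F at 99 bases and YY1 at 26 bases before its start. The windows of Cdkn2b, Cdkn2d and the downstream starts of Cdkn2c and Cdkn2a matched none of the motifs. YY1 matched 4 of the 13 windows of the 10 genes and 16.1% of all windows. E2F motifs matched 1 of the 13 and 1.56% of all, FOXO 1 of the 13 (Ccnd3) and 3.65%, and STAT 0 of the 13 and 8.3%. The windows are the reference sequence, which is that of B6. The TC alleles were not analysed here.

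Cdkn2c, which encodes the INK4 inhibitor p18, showed the clearest pattern of the 10 genes: it was high in Tfh, low in Tn, and lower in TC than in B6 in both. The gene spans chr4:109660876-109667189 on the minus strand (GENCODE M21, GRCm38). It stood at 12.1, 8.65 and 10.3 CPM in the 3 TC Tfh libraries, against 25.6, 23.3, 21.9 and 22.4 CPM in the 4 B6 Tfh libraries. It stood at 0.334, 0.318 and 0.334 CPM in TC Tn, against 4.54, 3.59, 4.10 and 3.65 CPM in B6 Tn. No group overlapped another, and the order of the groups was B6 Tfh, TC Tfh, B6 Tn and TC Tn, from high to low. The TC Tn values rest on 17 counts over 3 libraries, 5 or 6 in each, close to the floor of 3. Cdkn2c reached the filter's cutoff, 0.543 counts per 1e6 of the unscaled total, in every library but those 3, so it was tested through the other groups.

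In Tfh the strain difference of Cdkn2c was 2.25-fold, to 10.3 ± 1.70 CPM in TC (SD, n = 3) against 23.3 ± 1.66 CPM in B6 (SD, n = 4), a log2 fold change of -1.17 (SE 0.11, adjusted p = 4.51e-07). In Tn it was 11.8-fold, to 0.329 ± 0.00931 CPM in TC against 3.97 ± 0.443 CPM in B6, a log2 fold change of -3.57 (SE 0.23, adjusted p = 2.29e-09). Among the 13427 genes this fall was the 43rd largest in Tn and the 267th largest in Tfh. Cdkn2c rose in Tfh relative to Tn in both strains, by a log2 fold change of 4.95 in TC (SE 0.21, 30.9-fold, adjusted p = 6.74e-13) and of 2.55 in B6 (SE 0.11, 5.86-fold, adjusted p = 7.71e-13). The difference between these log2 fold changes, the interaction of strain and cell type, was 2.40 (SE 0.27, 95% interval 1.82 to 2.97, adjusted p = 4.46e-05). It was present mouse by mouse: Tfh minus Tn of log2(CPM + 0.5) was 3.91, 3.48 and 3.70 in the TC mice and 2.37, 2.54, 2.29 and 2.46 in the B6 mice. With each library left out in turn it lay between 2.30 and 2.53, and it was called each time.

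**Figure D2:**
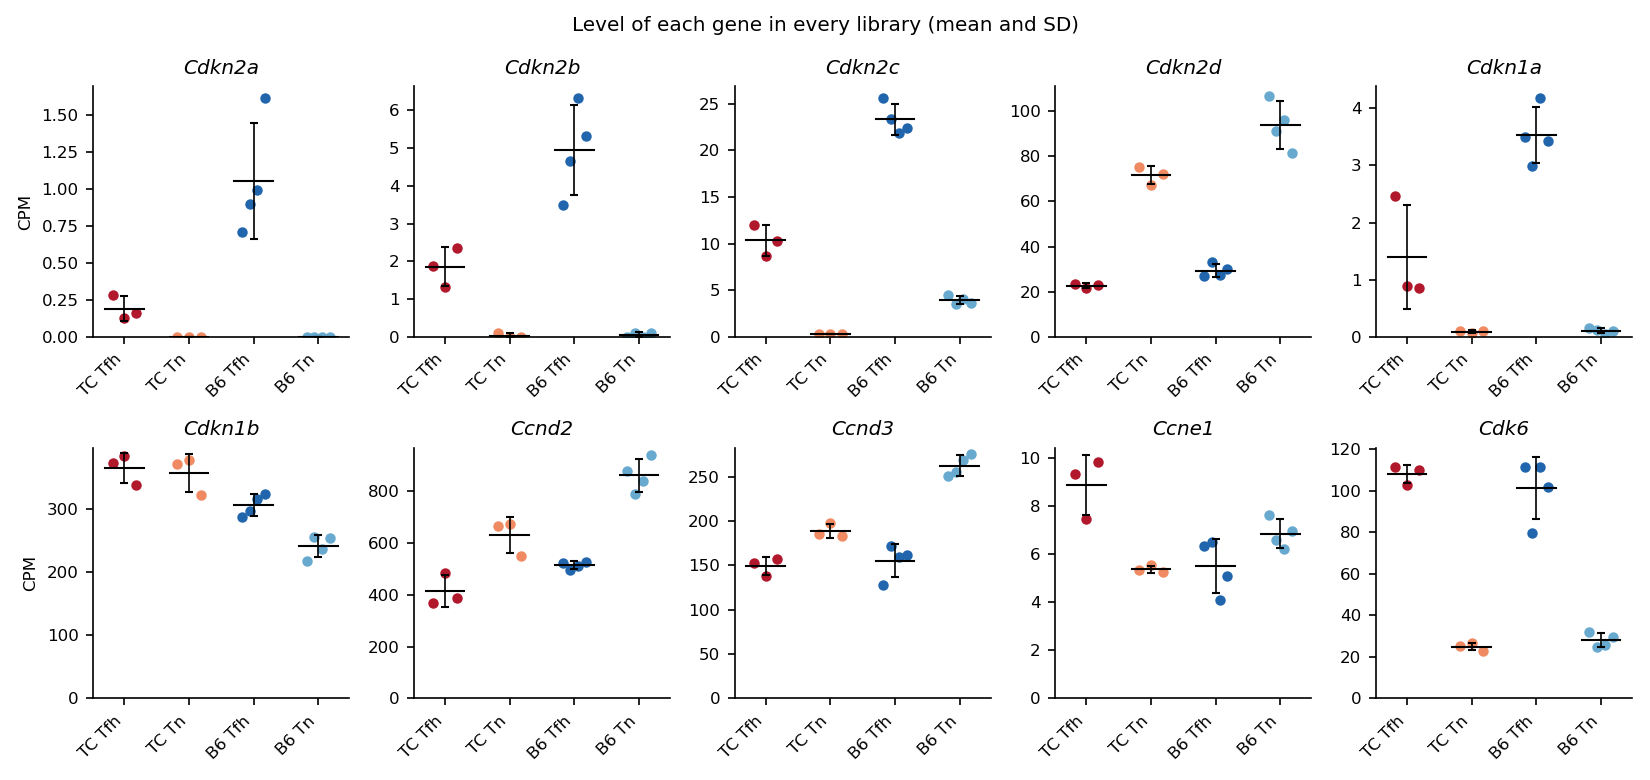
Scaled CPM of each of the 10 genes in every library, on a linear axis for each gene, with points for libraries and bars for the group mean ± SD. Cdkn2c stands apart in all 4 groups, from 0.318 CPM in the lowest TC Tn library to 25.6 CPM in the highest B6 Tfh library, whereas Cdkn1a, Cdkn2a and Cdkn2b are near 0 in every Tn library.

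The genes around Cdkn2c did not all fall with it. Of 23 other tested genes within 2 Mb, 5 rose and 11 fell in TC relative to B6 in Tfh, with a median log2 fold change of -0.25, and 5 rose and 13 fell in Tn, with a median of -0.27. Across all tested genes 24.2% rose and 25.5% fell in Tfh, and 25.9% rose and 26.1% fell in Tn. The genes on either side were looked at after their values were seen. The nearest, 9630013D21Rik, lies on the same strand 3.0 kb downstream of Cdkn2c and stood at 3.54, 2.40 and 3.07 CPM in TC Tfh, against 6.33, 5.25, 5.44 and 6.24 CPM in B6 Tfh. In Tn it had 0 counts over the 3 TC libraries and 8 counts over the 4 B6 libraries. Faf1, 9.4 kb away on the other side, had log2 fold changes of -0.29 in Tfh (adjusted p = 0.00043) and -0.32 in Tn (adjusted p = 0.000121). On chromosome 4 as a whole, 50.2% of tested genes were called between the strains in Tfh and 52.3% in Tn. These shares were 48.7% in Tfh and 51.6% in Tn for genes outside chromosomes 1, 4 and 7.

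**Figure D3:**
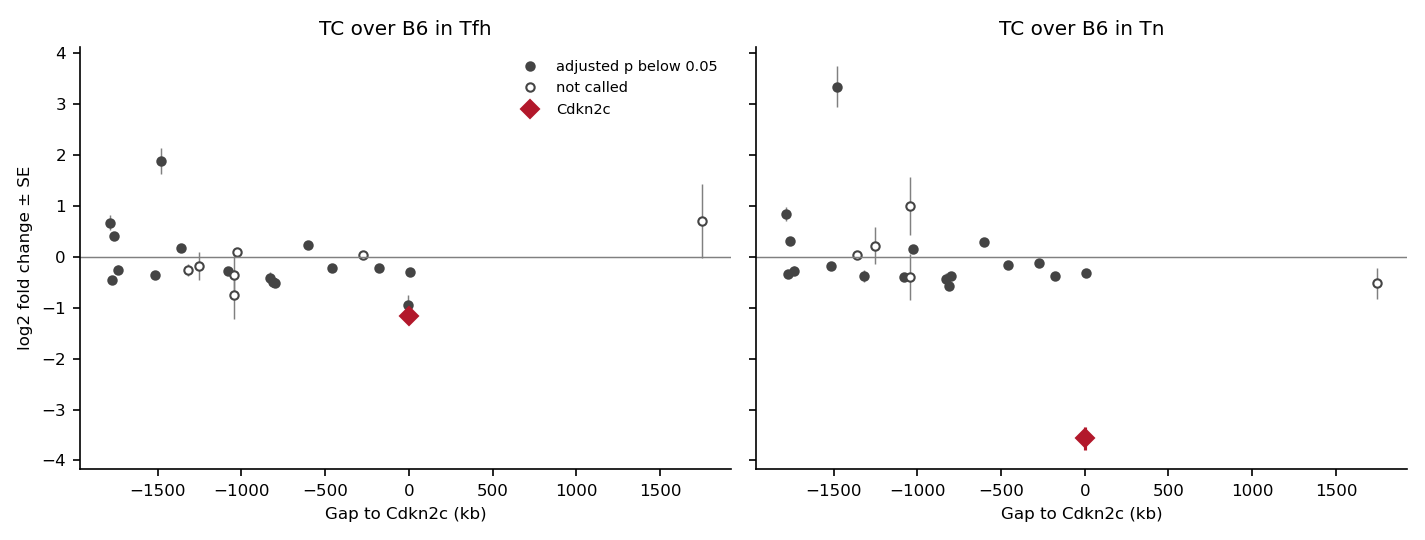
Log2 fold change of TC over B6 for tested genes within 2 Mb of Cdkn2c, by their gap to it in kb, with 1 panel for Tfh and 1 for Tn, lines for ± SE, filled points for called genes and open points for others, and genes with no counts in a group left out. Cdkn2c lies at -1.17 in Tfh and -3.57 in Tn, among neighbours whose medians are -0.25 and -0.27.

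Cdkn2d, which encodes the INK4 inhibitor p19INK4d, went the opposite way between cell types. It stood at 23.4, 21.5 and 23.1 CPM in TC Tfh, against 75.1, 67.3 and 72.3 CPM in TC Tn. It stood at 26.9, 33.4, 27.4 and 30.0 CPM in B6 Tfh, against 107, 91.3, 96.2 and 81.3 CPM in B6 Tn. Every Tfh library lay below every Tn library. The fall was 3.15-fold in TC (log2 fold change -1.66, SE 0.10, adjusted p = 8.29e-11) and 3.19-fold in B6 (-1.67, SE 0.08, adjusted p = 4.07e-12), and the interaction was 0.02 on the log2 scale with a 95% interval from -0.25 to 0.28. Cdkn2d was also lower in TC, with log2 fold changes of -0.37 in Tfh (SE 0.09, adjusted p = 0.00324) and -0.39 in Tn (SE 0.08, adjusted p = 0.000742), and without overlap of the strains in either cell type. The gene lies at chr9:21288410-21291407, outside the chromosomes of the 3 intervals.

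Because levels can be compared between genes only per length, CPM were divided by the exon length in kb. On that scale the ratio of Cdkn2d to Cdkn2c was 3.32 to 4.25 in TC Tfh, 361 to 384 in TC Tn, 1.79 to 2.44 in B6 Tfh and 38.0 to 43.5 in B6 Tn. The sum of Cdkn2b, Cdkn2c and Cdkn2d was 17.9 to 20.7 CPM per kb in TC Tfh and 42.9 to 47.9 in TC Tn, and 29.1 to 33.2 in B6 Tfh and 53.1 to 69.6 in B6 Tn. The summed level of these 3 INK4 transcripts was thus lower in each Tfh library than in each Tn library, and lower in each TC library than in each B6 library of the same cell type.

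Cdkn2b and Cdkn2a lie next to each other on chromosome 4, at chr4:89306299-89311039 and chr4:89274471-89294653, and both were found almost only in Tfh. Cdkn2b, which encodes the INK4 inhibitor p15, stood at 1.88, 1.33 and 2.37 CPM in TC Tfh, against 3.49, 4.65, 6.32 and 5.31 CPM in B6 Tfh. In Tn it had 2 counts over the 3 TC libraries and 4 counts over the 4 B6 libraries. The strains did not overlap in Tfh, and the log2 fold change of TC over B6 was -1.40 (SE 0.30, 2.63-fold, adjusted p = 0.00109). By edgeR, Tfh exceeded Tn 41.2-fold in TC (adjusted p = 1.31e-06) and 78.7-fold in B6 (adjusted p = 1.39e-09). The ratio of pooled counts in TC, scaled by library totals, was 48.7 (95% counting interval 13.1 to 408). All these values rest on the few Tn counts.

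Cdkn2a encodes p16INK4a and, from another first exon, p19ARF, which acts on p53 rather than on CDK4. The gene-level counts cannot tell the transcripts apart. It stood at 0.286, 0.126 and 0.161 CPM in TC Tfh, 10 counts in all, against 0.709, 0.899, 0.993 and 1.61 CPM in B6 Tfh, 82 counts in all. All 7 Tn libraries had 0 counts. The strains did not overlap in Tfh, and the log2 fold change was -2.41 (SE 0.47, 5.31-fold, adjusted p = 0.00103). Set against a floor of 3 counts over the Tn group, Cdkn2a was at least 3.31-fold higher in Tfh in TC and at least 25.0-fold higher in B6. The edgeR tests, which do not use that floor, gave adjusted p = 0.00601 in TC and 2.74e-06 in B6. Cdkn2a passed the filter through the 4 B6 Tfh libraries alone, with 0 of 3 TC Tfh libraries at the cutoff, so that its lower level in TC Tfh and in B6 Tn was a condition of being tested. Cdkn2b passed through Tfh libraries alone, so that the direction of its differences between cell types was such a condition.

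Cdkn1a, the p53 target that encodes p21, was likewise a Tfh transcript that was lower in TC. It stood at 2.46, 0.884 and 0.861 CPM in TC Tfh, against 3.49, 3.00, 4.18 and 3.43 CPM in B6 Tfh. TC Tn had 5 counts in 3 libraries and B6 Tn 8 counts in 4. The strains did not overlap in Tfh. The log2 fold change of TC over B6 was -1.32 (SE 0.29, 2.5-fold, adjusted p = 0.00128), and TC Tfh replicate 1 set its size: without that library it was -1.99 (adjusted p = 3.59e-05). In Tfh relative to Tn the log2 fold change was 3.77 in TC (SE 0.54, adjusted p = 7.22e-06), or 3.12 without that library, and 4.90 in B6 (SE 0.40, adjusted p = 4.25e-09). Cdkn1a passed the filter through Tfh libraries alone.

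Cdkn1b, which encodes p27, was the one inhibitor that was higher in TC. It stood at 374, 384 and 338 CPM in TC Tfh, against 287, 298, 317 and 325 CPM in B6 Tfh. It stood at 371, 378 and 323 CPM in TC Tn, against 218, 256, 237 and 254 CPM in B6 Tn. All TC libraries lay above all B6 libraries of the same cell type. The rise was 1.19-fold in Tfh (log2 fold change 0.25, SE 0.07, adjusted p = 0.00642) and 1.48-fold in Tn (0.57, SE 0.07, adjusted p = 4.02e-06). Between cell types Cdkn1b rose 1.27-fold in B6 Tfh (log2 fold change 0.35, SE 0.07, adjusted p = 0.000128), whereas in TC the log2 fold change was 0.03 with a 95% interval from -0.13 to 0.19. The interaction, -0.32 on the log2 scale, was not called (adjusted p = 0.12), but it was called with mouse as a block (-0.32, adjusted p = 0.0115).

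**Figure D4:**
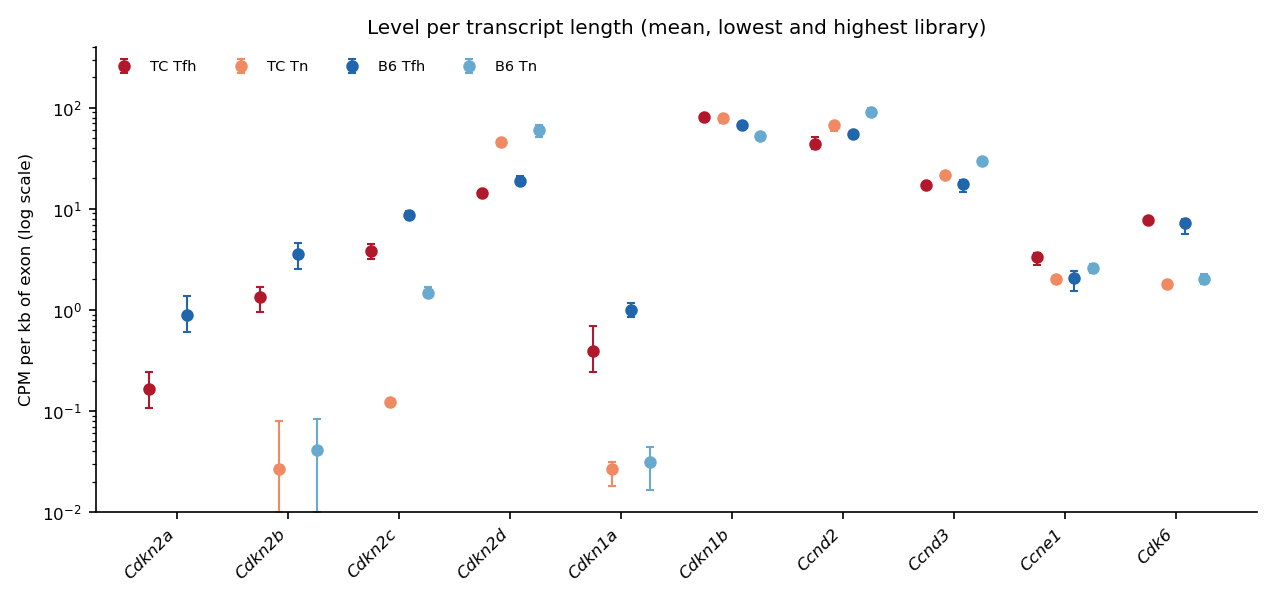
CPM per kb of exon for each of the 10 genes in the 4 groups on a log axis, with points for means and lines from the lowest to the highest library, where groups at 0 counts are not drawn and the lines of Cdkn2b in Tn, whose lowest libraries are at 0, run off the axis. Cdkn1b leads in TC Tfh at 80.3, in TC Tn at 78.6 and in B6 Tfh at 67.4 CPM per kb, and Ccnd2 leads in B6 Tn at 91.4.

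Per length the order of the 10 transcripts differed between groups. In TC Tfh, Cdkn1b (80.3 ± 5.26 CPM per kb) was followed by Ccnd2 (43.9 ± 6.60), Ccnd3 (17 ± 1.14), Cdkn2d (14.4 ± 0.642), Cdk6 (7.72 ± 0.317), Cdkn2c (3.85 ± 0.632) and Ccne1 (3.33 ± 0.471; SD, n = 3). Here Cdkn2c and Ccne1 overlapped within their range, and Cdkn2b, Cdkn1a and Cdkn2a came last. In TC Tn, Cdkn1b (78.6 ± 6.57) and Ccnd2 (67 ± 7.30) overlapped and were followed by Cdkn2d (45.5 ± 2.5) and Ccnd3 (21.5 ± 0.901), and Cdkn2c (0.122 ± 0.00347) stood below Ccne1 (2.02 ± 0.0563) and Cdk6 (1.79 ± 0.132). In B6 Tfh, Cdkn1b (67.4 ± 3.78) and Ccnd2 (54.6 ± 1.56) led, Cdkn2d (18.7 ± 1.89) and Ccnd3 (17.7 ± 2.13) overlapped, and Cdkn2c (8.68 ± 0.617) stood above Cdk6 (7.23 ± 1.07; SD, n = 4). In B6 Tn, Ccnd2 (91.4 ± 6.74) led, Cdkn2d (59.7 ± 6.74) and Cdkn1b (53 ± 3.85) overlapped, and Ccnd3 (29.9 ± 1.32) came next.

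The D cyclins fell in Tfh. Ccnd2, which encodes cyclin D2, stood at 369, 484 and 386 CPM in TC Tfh, against 667, 673 and 551 CPM in TC Tn. It stood at 523, 494, 510.2 and 527 CPM in B6 Tfh, against 875, 787, 840.0 and 938 CPM in B6 Tn. Tfh and Tn libraries did not overlap in either strain. The fall was 1.53-fold in TC (log2 fold change -0.61, SE 0.10, adjusted p = 2.46e-05) and 1.68-fold in B6 (-0.74, SE 0.08, adjusted p = 3.3e-07). Ccnd2 was lower in TC than in B6 in Tfh (log2 fold change -0.32, SE 0.09, adjusted p = 0.00799) and in Tn (-0.45, SE 0.09, adjusted p = 0.000475). The call in Tfh was lost without TC Tfh replicate 1 (log2 fold change -0.22, adjusted p = 0.0778) or replicate 4 (-0.25, adjusted p = 0.0602).

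Ccnd3, which encodes cyclin D3, the D cyclin needed for expansion of germinal centre B cells and thymocytes, stood at 153, 138 and 157 CPM in TC Tfh, against 186, 198 and 183 CPM in TC Tn. It stood at 128, 171, 159.7 and 162 CPM in B6 Tfh, against 251, 255, 268 and 275 CPM in B6 Tn. All Tn libraries were above all Tfh libraries. The fall in Tfh was 1.26-fold in TC (log2 fold change -0.34, SE 0.08, adjusted p = 0.00177) and 1.69-fold in B6 (-0.75, SE 0.07, adjusted p = 3.94e-08). TC was lower than B6 in Tn (log2 fold change -0.47, SE 0.08, adjusted p = 7.47e-05), and in Tfh the log2 fold change was -0.06 with a 95% interval from -0.22 to 0.11. The interaction of 0.42 on the log2 scale (SE 0.11) just missed the threshold (adjusted p = 0.0542), and it was called with mouse as a block (0.42, adjusted p = 0.018). The span of Ccnd3 overlaps Bysl on the other strand, and the strand setting of the counts is not known. Whether their exons overlap was not analysed. Bysl averaged 12.9 CPM in TC Tfh and 34.3 CPM in TC Tn, and 17.6 CPM in B6 Tfh and 47.6 CPM in B6 Tn.

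Cdk6, the kinase that the D cyclins activate and the INK4 proteins bind, rose in Tfh while its cyclins fell. It stood at 111, 103 and 109.8 CPM in TC Tfh, against 25.4, 26.6 and 23.0 CPM in TC Tn. It stood at 112, 79.8, 111 and 102 CPM in B6 Tfh, against 32.0, 25.0, 25.9 and 29.8 CPM in B6 Tn. The cell types did not overlap, and the strains overlapped. The rise was 4.33-fold in TC (log2 fold change 2.11, SE 0.12, adjusted p = 4.88e-10) and 3.59-fold in B6 (1.84, SE 0.10, adjusted p = 2.52e-10). No strain difference was called, with 95% intervals of the log2 fold change from -0.12 to 0.31 in Tfh and from -0.43 to 0.08 in Tn. The summed CPM of Ccnd2 and Ccnd3, each per kb and divided by that of Cdk6, was 7.12 to 9.13 in TC Tfh and 48.4 to 50.7 in TC Tn, and 8.80 to 12.6 in B6 Tfh and 53.2 to 64.7 in B6 Tn.

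Ccne1, which encodes cyclin E1, rose in Tfh in TC, whereas in B6 no difference between cell types was called. It stood at 9.31, 7.45 and 9.84 CPM in TC Tfh, against 5.34, 5.53 and 5.24 CPM in TC Tn. It stood at 6.33, 6.49, 4.08 and 5.10 CPM in B6 Tfh, against 7.63, 6.59, 6.20 and 6.96 CPM in B6 Tn. In TC every Tfh library exceeded every Tn library, and in B6 the cell types overlapped. Ccne1 rose 1.66-fold in Tfh in TC (log2 fold change 0.73, SE 0.16, adjusted p = 0.000827), and in B6 the log2 fold change was -0.32 (SE 0.14, adjusted p = 0.0568). TC exceeded B6 in Tfh without overlap, 8.87 ± 1.25 CPM (SD, n = 3) against 5.50 ± 1.13 CPM (SD, n = 4), a log2 fold change of 0.69 (SE 0.15, adjusted p = 0.00109). In Tn the TC libraries all lay below the B6 libraries, with a log2 fold change of -0.35 that was not called (SE 0.16, adjusted p = 0.0697).

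The interaction of Ccne1 was 1.04 on the log2 scale (SE 0.22, 95% interval 0.58 to 1.5, adjusted p = 0.0163). By mouse, Tfh minus Tn of log2(CPM + 0.5) was 0.75, 0.40 and 0.85 in TC and -0.25, -0.02, -0.55 and -0.41 in B6, so that the signs split by strain. With mouse as a block the fall in B6 was called too (log2 fold change -0.32, adjusted p = 0.0273). Ccne1 lies on chromosome 7, at chr7:38097984-38107534, and that chromosome also holds Sle3. Whether the gene is inside the interval was not analysed here. Its close relative Ccne2, which encodes cyclin E2, rose in Tfh in both strains, with log2 fold changes of 1.88 in TC (adjusted p = 2.49e-05) and 2.19 in B6 (adjusted p = 6.24e-07), and it was not called between strains.

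**Figure D5:**
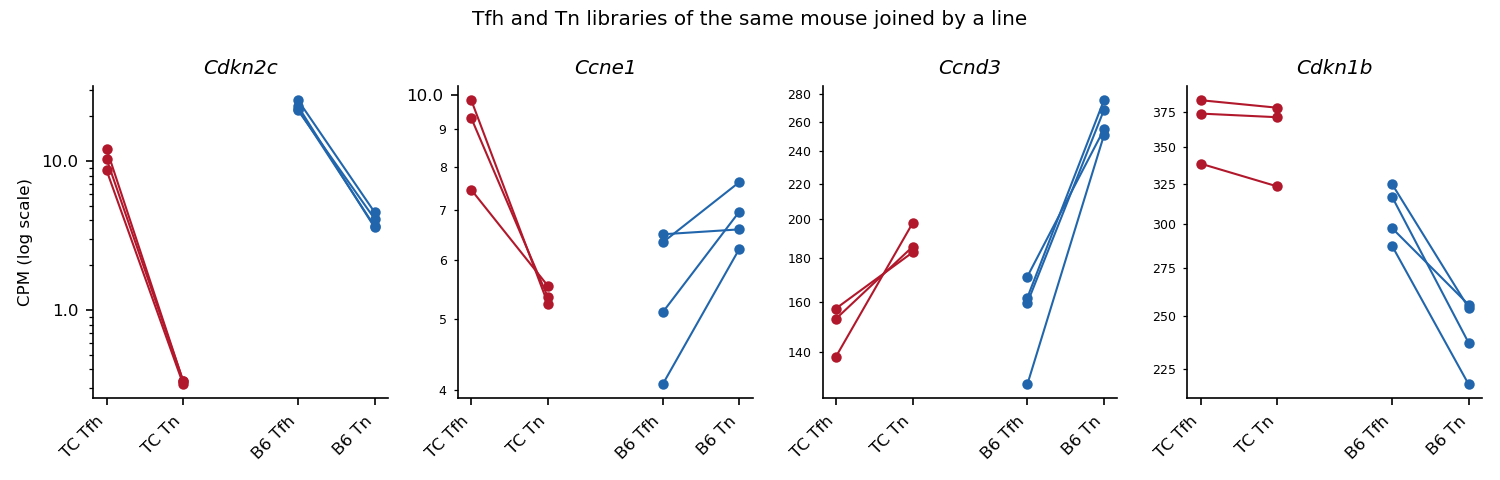
CPM of Cdkn2c, Ccne1, Ccnd3 and Cdkn1b on a log axis, with a line joining the Tfh and Tn library of each of the 7 mice. Cdkn2c is higher in Tfh in all 7 mice and more so in the 3 TC mice, and Ccne1 is higher in Tfh in the 3 TC mice and lower in the 4 B6 mice.

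The partners of these genes were read from lists of the pathway. The counts of this list and of those that follow are a description, beside the shares of all tested genes. Of these 33.7% rose and 32.4% fell in Tfh in TC, and 36.9% rose and 33.3% fell in B6. In TC relative to B6, 24.2% of all tested genes rose and 25.5% fell in Tfh, and 25.9% rose and 26.1% fell in Tn. Among 7 other tested G1 cyclins and kinases, 2 rose and 2 fell in Tfh in TC, and 1 rose and 3 fell in B6. In TC relative to B6, 0 rose and 3 fell in Tfh and 1 rose and 5 fell in Tn. Cdk4, the other kinase that INK4 proteins bind, averaged 80.3 CPM in TC Tfh against 114 CPM in B6 Tfh, and 82.3 CPM in TC Tn against 126 CPM in B6 Tn. Its log2 fold change was -0.50 in Tfh (adjusted p = 3.17e-06) and -0.61 in Tn (adjusted p = 2.25e-07). Cdk2, the partner of cyclin E, fell in Tfh relative to Tn, with log2 fold changes of -0.66 in TC (adjusted p = 1.72e-06) and -0.49 in B6 (adjusted p = 8.26e-06). Of the other CDK inhibitors only Cdkn1c, encoding p57, was tested, and the smallest of its 5 adjusted p was 0.267.

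Of 13 genes of the retinoblastoma family and the E2F factors, 8 rose in Tfh in TC and 9 in B6, with none falling. Of all tested genes 66.1% were called in TC, 33.7% of them higher in Tfh, and 70.3% in B6, 36.9% higher, with shares taken over all tested genes. E2f3, an activating E2F, rose by a log2 fold change of 1.71 in TC (adjusted p = 2.96e-10) and 1.25 in B6 (adjusted p = 1.1e-09). Between strains, 1 rose and 4 fell in Tfh and 2 rose and 4 fell in Tn. Rb1, which encodes the retinoblastoma protein itself, rose in TC by 0.40 on the log2 scale in Tfh (adjusted p = 0.000171) and 0.51 in Tn (adjusted p = 1.46e-05). Tfdp1, the dimer partner of E2F proteins, fell in TC, with log2 fold changes of -0.20 in Tfh (adjusted p = 0.0229) and -0.60 in Tn (adjusted p = 2.91e-06), and its interaction of 0.40 on the log2 scale was called (adjusted p = 0.0395). A list of 7 genes for the DREAM and MuvB complexes held Lin9, Lin37, Lin52, Lin54, Rbbp4, Mybl2 and Foxm1. Of these, 1 rose and 1 fell in Tfh in TC, and 3 rose and 1 fell in B6. Foxm1 was among the 3 (log2 fold change 0.67, adjusted p = 0.000309). Lin54, the DNA-binding subunit of MuvB, was the one that fell, with a log2 fold change of -0.65 in both strains (adjusted p = 5.29e-07 in TC and 6.86e-08 in B6).

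Genes that act after G1 were read from 3 lists. Beside their counts between strains, 24.2% of all tested genes rose and 25.5% fell in Tfh, and 25.9% rose and 26.1% fell in Tn. Of 5 S to M cyclins and Cdk1, 4 rose in Tfh in TC and all 5 in B6, with median log2 fold changes of 1.82 in TC and 2.82 in B6. In TC Tfh relative to B6 Tfh, 3 of the 5 fell: Ccnb2 (log2 fold change -0.91, adjusted p = 0.00346), Cdk1 (-0.98, adjusted p = 0.00373) and Ccna2 (-0.98, adjusted p = 0.0123). In Tn the median log2 fold change of the 5 between strains was -0.13. Of 15 E2F target genes of DNA replication, 8 rose and 4 fell in Tfh in TC, and 9 rose and 5 fell in B6. Between strains 0 rose and 10 fell in Tfh, and 0 rose and 6 fell in Tn, at median log2 fold changes of -0.25 in Tfh and -0.09 in Tn. Mcm2, a subunit of the replicative helicase, fell by 0.51 on the log2 scale in Tfh (adjusted p = 3.26e-07) and by 0.79 in Tn (adjusted p = 1.08e-09). Mcm6, another subunit, rose in Tfh relative to Tn by 1.22 on the log2 scale in TC (adjusted p = 4.78e-12) and 1.34 in B6 (adjusted p = 1.15e-13). Of 12 mitosis genes, 8 rose and 1 fell in Tfh in TC, 11 rose in B6, and 4 fell in TC Tfh relative to B6 Tfh with none rising. In TC Tn relative to B6 Tn, 2 rose and 2 fell. Cdc20 rose there by 0.78 on the log2 scale (adjusted p = 0.000273), and Bub1b fell, at -2.60 (adjusted p = 0.000332). The interaction of Cdc20, -0.92, was called (adjusted p = 0.0249). Mki67, which marks cycling cells, averaged 49.0 CPM in TC Tfh and 2.34 CPM in TC Tn, and 44.4 CPM in B6 Tfh and 2.78 CPM in B6 Tn, and it was not called between strains.

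Of 12 genes that turn over or counteract G1 regulators, 5 rose and 3 fell in Tfh in TC, and 6 rose and 4 fell in B6. Skp1a and Cks1b, parts of the ubiquitin ligase that marks p27 for degradation, were lower in TC. Skp1a had log2 fold changes of -0.40 in Tfh (adjusted p = 2.03e-05) and -0.56 in Tn (adjusted p = 3.85e-07), and Cks1b of -0.97 in Tfh (adjusted p = 0.00015) and -0.97 in Tn (adjusted p = 0.000126). Skp2, the subunit that recognises p27, was not called between strains, with log2 fold changes of -0.36 in Tfh (adjusted p = 0.0589) and -0.09 in Tn (adjusted p = 0.665). It is given here for its role, and was chosen after its values were seen. The phosphatase gene Cdc25b, which activates CDKs, rose in Tfh by 1.78 on the log2 scale in TC (adjusted p = 1.05e-07) and 2.17 in B6 (adjusted p = 2.59e-09). Wee1, of the same list, rose in Tfh as well, by 3.11 in TC (adjusted p = 2.2e-08) and 2.90 in B6 (adjusted p = 3.06e-09).

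Of 14 tested genes of p53 and its targets, to which Cdkn1a belongs by function, 6 rose and 2 fell in Tfh in TC, and 9 rose and 2 fell in B6. Sesn1 fell in Tfh, with log2 fold changes of -1.40 in TC (adjusted p = 1.68e-12) and -1.53 in B6 (adjusted p = 4.28e-14). Fas rose by 1.12 in TC (adjusted p = 3.83e-11) and 1.03 in B6 (adjusted p = 6.92e-12). Trp53inp1 rose by 1.19 in TC (adjusted p = 5.87e-11) and 1.20 in B6 (adjusted p = 5.19e-12). In TC relative to B6, 1 rose and 6 fell in Tfh, and 1 rose and 4 fell in Tn. Mdm2, the ubiquitin ligase of p53, was the one that rose, by 0.35 on the log2 scale in Tfh (adjusted p = 2.6e-05) and 0.28 in Tn (adjusted p = 0.000186). Ccng1, a p53 target, fell in Tfh, with a log2 fold change of -0.38 (adjusted p = 4.06e-05). Of 15 regulators known to act on the 10 genes, 6 rose and 6 fell in Tfh in TC, and 5 rose and 6 fell in B6. Bcl6, the lineage factor of Tfh, rose by 2.83 on the log2 scale in TC (adjusted p = 4.13e-11) and 2.63 in B6 (adjusted p = 1.18e-11). Ezh2, the Polycomb methyltransferase known to silence the Cdkn2a and Cdkn2b genes, rose by 1.21 on the log2 scale in TC (adjusted p = 2.99e-10) and 1.23 in B6 (adjusted p = 1.91e-11). Foxo1, an activator of Cdkn1b, fell, with log2 fold changes of -1.16 in TC (adjusted p = 6.81e-10) and -1.14 in B6 (adjusted p = 8.3e-11). Klf4, a factor that restrains T cell proliferation, was higher in TC, by 3.55 on the log2 scale in Tfh (SE 0.54, adjusted p = 0.00026) and 2.47 in Tn (SE 0.72, adjusted p = 0.0136). Its TC libraries spread widely, from 11.3 to 38.9 CPM in Tfh and from 1.34 to 9.35 CPM in Tn. The B6 libraries ran from 1.66 to 3.35 CPM in Tfh and from 0.810 to 0.995 CPM in Tn.

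Genes that varied most like each member were found from log2 CPM over the 14 libraries after the 4 group means were taken out. Cdkn2c was nearest to Cenpb (Pearson r = 0.903) and Slc30a5 (r = 0.903), and Cdk6 to Traf3 (r = 0.945) and Nf1 (r = 0.944). Cdkn2d was nearest to Limd2 (r = 0.95), Ccnd3 to Pdrg1 (r = 0.951), Cdkn1b to Zcchc2 (r = 0.95), Cdkn1a to Hykk (r = 0.945), Ccnd2 to Alpl (r = 0.928) and Ccne1 to Wdr34 (r = 0.880). For Cdkn2a and Cdkn2b, whose counts were few or 0 in Tn, the nearest were Klf3 (r = 0.940) and Fam219b (r = 0.902). Each is 1 of the 2 genes with the highest r among the 13427, after Gm, Rik and pseudogene-like names were left out. Each r comes from libraries that share depth and preparation. Among the 10 genes themselves r ran from -0.58 to 0.58.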

How the data were processed

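RNA of Tfh and Tn cells from 7 mice was sequenced after preparation with a TruSeq Stranded kit, per the labels' protocols. The authors deposited read counts as a single table, with a row for each symbol and a column for each library. The submitters' processing notes name STAR 2.7, mm10 and DESeq2. How reads were counted, whether by strand, with which annotation and in which sequencing batches is not given in the sources used here. TC reads were counted on the B6 genome with no correction. Ccnd3 and Ccnd2 overlap genes on the other strand, and Ccnd3 also has a processed copy in the table, so part of their counts is uncertain. Tn samples were grouped by their titles, since another label calls them Tfh.

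All tests were computed here from those counts. Of 26683 symbols, 13427 passed the filterByExpr filter (count minimum 10). They were scaled by TMM and fitted with the robust quasi-likelihood model of edgeR 4.0.16 in R 4.3.3, with the 4 groups as the only terms. The 5 comparisons were of the cell types within TC and within B6, of the strains within Tfh and within Tn, and the interaction, each adjusted over all genes tested by Benjamini-Hochberg. A ratio to a group at 0 counts uses 3 counts over the group, and floors and counting intervals (95%) cover counting error only. The model was checked on simulated counts with known changes. No pair of libraries within a group was as close as duplicates would be (chi-square per degree of freedom 5.31 to 20.3).

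Replicate numbers mark the mouse, since the protocol sorts both cell types from each spleen. Deviations of same-numbered libraries from their group means correlated at 0.209, 0.207 and 0.257 in TC and at 0.299, 0.114, 0.0395 and 0.203 in B6. Alternatives were DESeq2 1.42.0, limma 3.58.1 voom (mouse as random effect), size factors by RLE, no filter, a count minimum of 50, mouse as a block and each library left out. Library totals without a scaling factor were added after seeing the data.

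The genes, pathway lists and marker lists were chosen with earlier results of these data known. Beside the 10 genes, the naming rule takes from each list the called genes with the smallest adjusted p and, as likeness, the genes of highest r. Positions and exon lengths are from GENCODE M21, whose build is that of mm10.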

Additional observations from a re-analysis of the deposited data

Results flagged for a closer look

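The Tfh to Tn ratio of Cdkn2c differed between the strains by an interaction of 2.40 on the log2 scale (edgeR, SE 0.27, adjusted p = 4.46e-05): the log2 fold change was 4.95 in TC and 2.55 in B6, and all 3 TC mice had a larger difference than all 4 B6 mice. The TC Tn side of this ratio rests on 17 counts. Some markers of other cells moved with it, and others went the opposite way. Of 6 tested B cell markers 0 were higher and 2 lower in TC Tn by edgeR: Cd74 averaged 3.09 CPM in TC Tn against 13.2 CPM in B6 Tn (log2 fold change -2.09, adjusted p = 4.5e-05), and Cd79b 0.533 CPM in TC Tn against 1.03 CPM in B6 Tn (log2 fold change -0.92, adjusted p = 0.0359). Cd74 was the 1 of the 6 with a called interaction, 1.64 on the log2 scale (adjusted p = 0.0218), of the same sign as that of Cdkn2c. The summed level of all 8 B cell markers was 671 to 728 CPM in TC Tn against 594 to 621 CPM in B6 Tn, most of it Ighm (704 against 591 CPM, adjusted p = 0.0531). Treg and Tfr markers summed to 117 to 155 CPM in TC Tn against 153 to 201 CPM in B6 Tn. In TC Tn 3 of these 5 were lower and 1, Ctla4, higher (log2 fold change 1.48, adjusted p = 0.0073), with 0 called interactions. Among myeloid, CD8 and NK markers, Gzma (-2.95, adjusted p = 9.6e-05) and Cd68 (-2.37, adjusted p = 0.00219) had called interactions of the opposite sign. Cd8b1 had one of the same sign as Cdkn2c (0.73, adjusted p = 0.0282). The part of these cells in the interaction was not tested.

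The Tfh to Tn ratio of Ccne1 also differed between the strains, by an interaction of 1.04 on the log2 scale (edgeR, SE 0.22, adjusted p = 0.0163). Ccne1 was higher in Tfh than in Tn in 3 of 3 TC mice and lower in 4 of 4 B6 mice. With each library left out in turn the interaction lay between 0.94 and 1.17, and its adjusted p between 0.00773 and 0.0496.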

How the results depend on the processing

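Over 1006 log2 fold changes of single genes under the alternatives, 974 kept their direction and their side of the threshold, 15 gained a call, 2 lost one and 15 changed sign. The losses were those of Ccnd2 between strains in Tfh, and the gains fell on Ccne1, Ccnd3 and Cdkn1b. The sign changes were all of values that were not called. Without a filter, Cdkn1b in TC became -0.0105 and the Cdkn2d interaction -0.0250, and with library totals that interaction was -0.0063. Leaving out single libraries gave values for Cdkn1b in TC from -0.0386 to 0.111, Ccnd3 between strains in Tfh from -0.117 to 0.0157, and in Tn Cdkn1a from -0.385 to 0.0126 and Cdkn2b from -3.19 to 0.0717. The interactions ran from -0.0505 to 0.0894 for Cdkn2d and from -1.47 to 1.79 for Cdkn2b.

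The count of called interactions was 533 with DESeq2, 580 with voom and 736 with the replicate block, and 159 to 344 with single libraries left out (2 to 3 of the 10 genes). With voom and with the block 4 of the 10 genes were called, the 2 others being Ccnd3 and Cdkn1b; the cause was not tested. The count of 312 moved by over 1.5 times without TC Tfh replicate 1 (205) or 4 (174), TC Tn replicate 1 (203) or 2 (159), or B6 Tn replicate 2 (204) or 3 (199). Other counts of the 10 genes were 9 between cell types in TC, 9 to 10 in B6, 7 to 8 between strains in Tfh and 5 to 6 in Tn with single libraries left out. Beside the calls of Ccne1, Ccnd3 and Cdkn1b, the block changed no call of the 10 genes; it could not be fitted between strains, since each mouse has 1 strain. In TC the Cdkn2b log2 fold change of Tfh over Tn ran from 4.83 to 8.09, the highest without TC Tn replicate 1, which holds all its TC Tn counts. Between strains in Tfh, Cdkn2a ran from -2.78 to -2.12. Library totals in place of TMM raised the median of all genes by 0.109 for Tfh over Tn in TC and by 0.134 in B6. Depth limits Cdkn1a, Cdkn2a and Cdkn2b in Tn, where a strain difference was not detectable.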
